A study of Mus musculus with 5 samples.

Results

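The histone genes on this mouse array comprised 76 probes for 68 genes, of 25697 probes in all, and were chosen by gene symbol to cover linker, core and variant histones. Of these, 49 probes for 45 genes were above background (detection p under 0.05 on at least 2 of the 5 arrays), among 8928 such genes. The family was taken up because its linker histone H1f10 had differed between the TARBP2 siRNAs, so the values of H1f10 are given as a description with no test. The other 44 genes above background were tested. All 5 arrays carried RNA from Dicer-null mouse embryonic fibroblasts (MEFs, strain C57BL/6), taken 48 hours after Lipofectamine transfection. The knockdown group held 2 arrays, siTARBP2-1 and siTARBP2-2, each with a different siRNA against TARBP2, which binds double-stranded RNA and works with Dicer. The control group held 3 arrays, siControl-1 to siControl-3. The absence of Dicer was shared by every group, and the labels do not tell whether arrays came from separate cultures, so p-values measure a spread that may be technical. The labels call the cells MEFs, whereas the design text speaks of metastatic cells and of mock transfection. Neither gives the number of clones in the line. In such bulk samples, fewer cells of a type and less RNA per cell cannot be told apart.

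Histones package DNA into nucleosomes. The core histones H2A, H2B, H3 and H4 form the particle around which DNA is wound, and linker histones of the H1 family bind where DNA enters and leaves it. Most core histone genes are replication-dependent: they lie in clusters, are transcribed in S phase, and give mRNAs that end in a stem-loop in place of a poly(A) tail. Variant histones such as H2A.Z, H2A.X and H3.3, and the linker histones H1f10 and H1f0, are encoded by genes outside the clusters, and most of these give ordinary polyadenylated mRNA. Labelling kits of the kind named in the labels copy RNA from an oligo(dT) primer, so signals of replication-dependent genes rest on whatever polyadenylated RNA they give; how far that shaped the values below was not tested. Core histone genes of a class are also nearly identical in sequence. Probe sequences were not used here, so neighbouring probes may share target RNA and their values are not independent.

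Tarbp2 was lower on both knockdown arrays, with a normalized log2 signal of 7.67 with siTARBP2-1 and 7.18 with siTARBP2-2, against 9.50, 9.55 and 9.36 on the control arrays (probe ILMN_2939990). Its other probe, ILMN_2649955, had 6.66 and 5.81, against 8.11, 7.99 and 8.13. Tarbp2 was thus lower with siTARBP2-2 than with siTARBP2-1, by 0.49 at the first probe and 0.85 at the other. The part of this difference in the histone values was not tested. Dicer1 was not above background on any array. Of 9 fibroblast markers on the array, 7 were above background on all 5 arrays, while Thy1 and Lum were on none. The summed log2 signal of those 9 markers ran from 67.0 to 69.3 on the knockdown arrays and from 69.0 to 69.5 on the controls. None of 3 leukocyte markers was detected on an array. Of 3 epithelial markers Cdh1 was detected on 2 arrays and Krt5 and Krt14 on 0, and of 3 endothelial markers Pecam1 was detected on 1 array and Cdh5 and Tek on 0. The pluripotency genes Pou5f1 and Sox2 were above background on all 5 arrays and Nanog on 0. The median raw signal was 79.5 and 79.9 on the knockdown arrays and 79.0 to 81.9 on the controls. The summed raw signal was lowest with siTARBP2-1, at 10982200. It was 12192100 with siTARBP2-2 and 11537100 to 12278000 on the controls. Between 12445 and 13051 probes per array were above background, where the siTARBP2-2 count rests on p-values taken from the other arrays.

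The promoters of the genes on which the results turn are shown here as the 150 bases before each RefSeq start (GRCm38.p6), 5′ to 3′, because core histone genes share promoter elements that H1f10 need not have. Capitals mark CCAAT (the binding motif of the factor NF-Y), TATAAA (the TATA box) and ATTTGCAT (the octamer bound by POU-domain factors), each searched on both strands; none of these letters overlap one another in the windows shown. H2bc6 has starts at 2 places in RefSeq, and both are given.
H1f10 (chr6:87981483-87981632, minus strand): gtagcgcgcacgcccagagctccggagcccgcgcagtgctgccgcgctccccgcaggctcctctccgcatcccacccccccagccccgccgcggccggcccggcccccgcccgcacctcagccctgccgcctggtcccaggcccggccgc
H2ac20 (chr3:96220881-96221030, minus strand): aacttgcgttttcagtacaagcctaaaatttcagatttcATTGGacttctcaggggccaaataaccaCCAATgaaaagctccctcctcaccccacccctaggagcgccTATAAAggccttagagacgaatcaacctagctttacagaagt
H2ac21 (chr3:96219735-96219884, plus strand): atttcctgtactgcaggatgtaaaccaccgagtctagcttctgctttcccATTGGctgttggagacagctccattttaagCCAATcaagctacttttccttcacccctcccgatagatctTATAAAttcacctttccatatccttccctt
H2bc6, upstream start (chr13:23621095-23621244, minus strand): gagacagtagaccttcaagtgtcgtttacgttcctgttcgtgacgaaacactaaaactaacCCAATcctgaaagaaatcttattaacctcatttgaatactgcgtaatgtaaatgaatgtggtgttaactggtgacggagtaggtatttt
H2bc6, downstream start (chr13:23585971-23586120, minus strand): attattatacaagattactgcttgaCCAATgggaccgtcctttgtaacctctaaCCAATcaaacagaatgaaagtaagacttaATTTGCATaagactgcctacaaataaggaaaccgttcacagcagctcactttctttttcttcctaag
H2bc18 (chr3:96269550-96269699, plus strand): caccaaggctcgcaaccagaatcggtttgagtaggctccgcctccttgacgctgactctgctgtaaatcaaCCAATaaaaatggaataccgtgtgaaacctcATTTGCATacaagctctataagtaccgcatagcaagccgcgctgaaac
H3c4 (chr13:23575613-23575762, plus strand): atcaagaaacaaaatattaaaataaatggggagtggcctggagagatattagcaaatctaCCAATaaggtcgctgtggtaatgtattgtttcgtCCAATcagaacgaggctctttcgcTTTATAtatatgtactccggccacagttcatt
H3c6 (chr13:23562386-23562535, minus strand): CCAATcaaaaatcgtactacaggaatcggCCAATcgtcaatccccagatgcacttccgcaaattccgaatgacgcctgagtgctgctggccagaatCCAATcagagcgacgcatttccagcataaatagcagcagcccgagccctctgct
The H1f10 window held none of these motifs. H2ac20 and H2ac21 are neighbours that run toward each other. In windows of 250 bases, CCAAT was present in 13 of 13 core H2A promoters, 10 of 10 core H2B promoters and 4 of 5 core H3 promoters, against 1 of 6 core H4 promoters and 33.8% of all 32851 promoters in the table. The octamer was present in 5 of 13 core H2A and 5 of 10 core H2B promoters, in 0 of 5 core H3 and 0 of 6 core H4 promoters, and in 1.6% of all promoters. The TATA letters were in 6 of 13 core H2A, 4 of 10 core H2B, 1 of 5 core H3 and 5 of 6 core H4 promoters, and in 12.4% of all. Of the 45 genes 41 had a promoter in the table, and H2ax, H2bc4, H3c1 and H3c7 had none matched. Further, 5 core H2A genes faced a core H2B gene on the opposite strand with overlapping windows, so those motif counts share DNA.

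Among linker histones, which compact the chromatin fibre, H1f10 was low on 1 array. Its probe ILMN_3122845 had a raw signal of 111.5 with siTARBP2-1 and 348.1 with siTARBP2-2, against 288.1, 280.9 and 265.8 on the control arrays. After normalization these were log2 signals of 5.98 and 8.17, against 7.81, 7.78 and 7.80. The siTARBP2-1 array thus stood below every other array and the siTARBP2-2 array above all 3 controls, whose values were 7.79 ± 0.0163 (mean ± SD, n = 3). On the linear scale this was 28.4% of control with siTARBP2-1 and 130% with siTARBP2-2, a log2 change of -1.81 and 0.38 (SE 0.11 each) and a difference of -2.19 between the siRNAs. Pooled over both siRNAs the change was -0.72, and it was 0.38 when siTARBP2-1 was left out. With no background correction the change with siTARBP2-1 was -1.25. A further H1f10 probe, ILMN_1247646, was near background, with raw signals of 74.1 and 82.5 on the knockdown arrays and 80.5 to 86.9 on the controls; it was above background on siTARBP2-2 and siControl-1 alone, and its mean with the brighter probe gave -1.06 for siTARBP2-1.

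H1f2, a replication-dependent linker histone, was higher on both knockdown arrays and did not pass the test. Its log2 signal was 11.31 with siTARBP2-1 and 11.52 with siTARBP2-2, against 11.06, 11.08 and 11.10 on the controls, so the groups did not overlap. The log2 change was 0.23 with siTARBP2-1 (limma, adjusted p = 0.248) and 0.44 with siTARBP2-2 (limma, adjusted p = 0.0757). With siTARBP2-2 it passed under 3 alternatives, such as no background correction (limma, adjusted p = 0.0114). H1f5 lay close to background at 5.11 and 5.27, against 5.09, 4.77 and 5.02, with changes of 0.15 and 0.31 that did not pass. The linker histone genes H1f1, H1f3 and H1f4 were not above background.

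**Figure D1:**
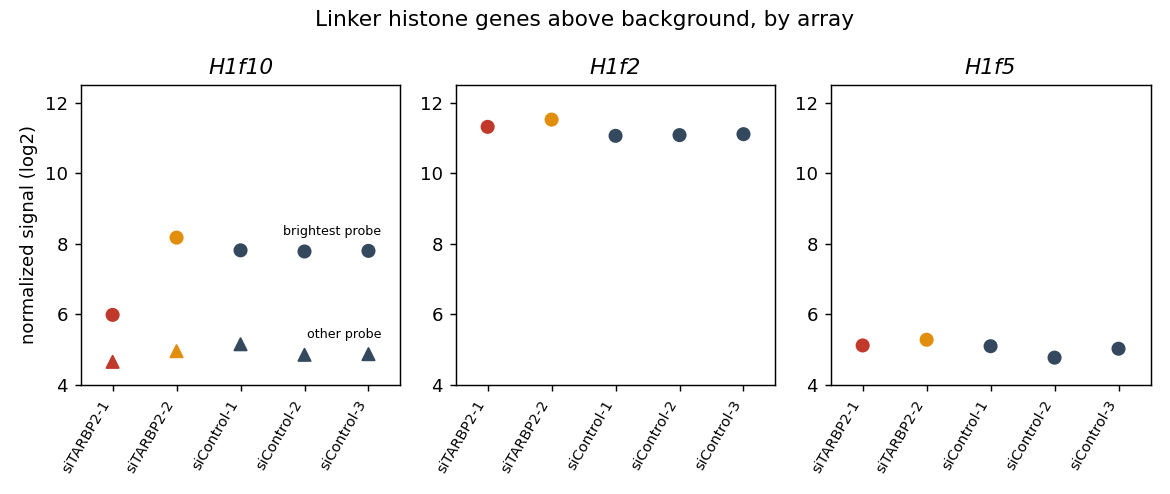
Normalized log2 signal of the 3 linker histone genes above background on each array, knockdown arrays in red and orange and control arrays in dark blue; circles are the brightest probe of a gene and triangles the other H1f10 probe. H1f10 was 5.98 with siTARBP2-1 and 8.17 with siTARBP2-2, against 7.78 to 7.81 on the controls, while H1f2 and H1f5 were not low on that array.

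Over the 44 tested histone genes, calls at the adjusted threshold in the main processing were about as frequent as among all genes. Between the siRNAs they were more frequent under some alternatives, given below. With siTARBP2-1 against control, 3 of 44 passed (6.82%; limma, adjusted over all probes), beside 7.65% of all genes tested. Of these 2 were higher, beside 3.88% of all genes, and 1 was lower, beside 3.77%. With median scaling 0 were higher and 2 lower, beside 9.17% of all genes called in either direction. With siTARBP2-2 against control, 2 of 44 passed (4.55%), beside 4.27%. Both were higher, beside 1.75% of all genes, and 0 were lower, beside 2.52%. Between the siRNAs, siTARBP2-1 minus siTARBP2-2, 3 of 44 passed (6.82%), beside 7.06%. All 3 were lower, beside 3.34% of all genes, and 0 were higher, beside 3.72%. Over both siRNAs together limma called 0 of 44, beside 0.0112% of all genes, and 5 had an unadjusted p under 0.05 (11.4%), beside 12.9% of all genes. For single siRNAs that unadjusted share was 29.5% with siTARBP2-1, beside 24.7% of all genes, and 13.6% with siTARBP2-2, beside 22.9%. Between the siRNAs it was 40.9%, beside 25.4% of all genes. Without siControl-2 the counts were 0 for siTARBP2-1, 0 for siTARBP2-2 and 1 between the siRNAs, beside 2.82%, 0.638% and 2.97% of all genes. Each siRNA has 1 array, so the spread in these fits comes from the 3 controls.

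More histone genes lay above the controls with siTARBP2-2 than with siTARBP2-1. The 44 genes other than H1f10 had a median log2 change of -0.06 for siTARBP2-1, with 26 negative, and of 0.21 for siTARBP2-2, with 41 positive, beside -0.01 and 0.02 for all genes tested. With siTARBP2-1, 22 of 44 lay below all 3 control arrays (50%), beside 35.6% of all genes, and 13 lay above them (29.5%), beside 32.9%. With siTARBP2-2, 30 of 44 lay above all 3 controls (68.2%), beside 36.9%, and 3 lay below them (6.82%), beside 32.1%. With H1f10 included the medians over 45 genes were -0.10 and 0.21. Such medians, H1f10 included, depended on the processing: for siTARBP2-1 the median was -0.24 with median scaling, -0.04 with no filter on dim probes (68 genes) and -0.05 with the mean of all probes of a gene, and for siTARBP2-2 it was 0.11 with no filter. Both sets of changes are taken against the same control arrays. With median scaling in place of quantile normalization the median of all genes moved by -0.12 for siTARBP2-1 and 0.03 for siTARBP2-2.

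Core H2A genes, whose products pair with H2B in the nucleosome, made up 10 of the 22 genes, H1f10 left aside, that lay below all 3 controls with siTARBP2-1. Of 13, 11 had a negative log2 change with siTARBP2-1 (median -0.30, from -0.61 to 0.26). Below all 3 controls lay 10 of the 13 (76.9%), beside 35.6% of all genes. With siTARBP2-2 13 of 13 were positive (median 0.25, from 0.01 to 0.38) and 11 lay above all controls (84.6%), beside 36.9% of all genes. The controls also moved as a class: the median deviation of the 13 genes from the control mean was 0.10 on siControl-1, -0.10 on siControl-2 and 0.01 on siControl-3. The knockdown arrays were thus outside the range of the controls on either side, at -0.30 and 0.25.

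At an unadjusted p under 0.05 limma gave 6 of 13 core H2A genes with siTARBP2-1, beside 24.7% of all genes. H2ac21 was the 1 of them called lower after adjustment, beside 3.77% of all genes. Its log2 signal was 8.68 with siTARBP2-1 and 9.30 with siTARBP2-2, against 9.35, 9.24 and 9.28 on the control arrays. The siTARBP2-1 array was below the other 4, which overlapped. H2ac21 stood at 65.7% of control with siTARBP2-1 (log2 change -0.61, SE 0.11; limma, adjusted p = 0.0255), and the call ended without siControl-2 (adjusted p = 0.0785). With siTARBP2-2 its change was 0.01 (limma, adjusted p = 0.966), and between the siRNAs -0.62 (limma, adjusted p = 0.0469). Its neighbour H2ac20 had 13.03 with siTARBP2-1 and 13.68 with siTARBP2-2, against 13.51, 13.34 and 13.45. That array order, lowest with siTARBP2-1 and highest with siTARBP2-2, gave a difference of -0.66 between the siRNAs (limma, adjusted p = 0.0464). The changes of H2ac20 against control, -0.41 and 0.25, did not pass (limma, adjusted p = 0.0929 and 0.276). The between-siRNA calls of H2ac20 and H2ac21 ended without siControl-2 (adjusted p = 0.091 and 0.104), without siControl-3 (0.0606 and 0.0648) and with no filter on dim probes (0.0665 and 0.0583).

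Other core H2A genes had similar values that did not pass. H2ac15 had log2 changes of -0.39 with siTARBP2-1 and 0.26 with siTARBP2-2, H2ac12 had -0.33 and 0.26, and H2ac24 had -0.32 and 0.23. H2ac18 had 0.24 and 0.25 and H2ac4 had 0.26 and 0.12, so these genes were positive with both siRNAs. The call count between the siRNAs depended on the processing. It was 15 of 44 with no background correction, when 14.1% of all genes were called, and 12 of 44 with median scaling, when 10.0% were. In the first of these 9 core H2A genes were lower with siTARBP2-1, among them H2ac10, H2ac15 and H2ac24.

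**Figure D2:**
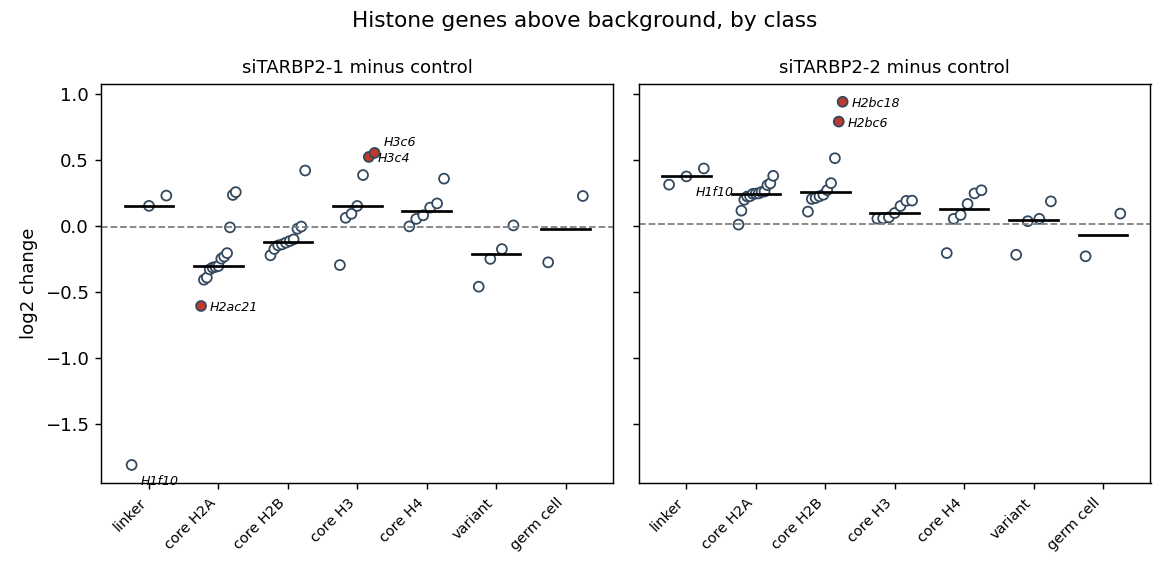
Log2 change of each of the 45 histone genes above background, siTARBP2-1 minus control on the left and siTARBP2-2 minus control on the right, grouped by class. Filled points passed limma at an adjusted p under 0.05, H1f10 is shown with no test, short bars are class medians and the dashed line is the median of all genes; core H2A genes had medians of -0.30 and 0.25.

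Core H2B genes rose in part with siTARBP2-2. All 10 were positive (median log2 change 0.26, from 0.11 to 0.94) and 10 of 10 lay above all 3 controls, beside 36.9% of all genes. These values are from the brightest probe of each gene. A dimmer H2bc4 probe, ILMN_2677231, lay below all 3 controls on both knockdown arrays, with changes of -0.19 with siTARBP2-1 and -0.12 with siTARBP2-2. Of the 10, 2 passed the test as higher, beside 1.75% of all genes. With siTARBP2-1, 9 of 10 were negative (median -0.12, from -0.22 to 0.42) and 0 passed, beside 7.65% of all genes.

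H2bc18 had a log2 signal of 7.42 with siTARBP2-1 and 7.94 with siTARBP2-2, against 7.03, 6.92 and 7.06 on the control arrays. Both knockdown arrays were above the controls. It rose to 192% of control with siTARBP2-2 (log2 change 0.94, SE 0.12; limma, adjusted p = 0.0165), and the call ended without siControl-2 (adjusted p = 0.0631). With siTARBP2-1 the change was 0.42 (limma, adjusted p = 0.0812). A second H2bc18 probe was not above background. H2bc6 had 6.34 with siTARBP2-1 and 7.31 with siTARBP2-2, against 6.56, 6.52 and 6.46, so the knockdown arrays lay on opposite sides of the controls. It rose to 173% of control with siTARBP2-2 (log2 change 0.79, SE 0.11; limma, adjusted p = 0.0214), a call that ended without siControl-2 (adjusted p = 0.0837). With siTARBP2-1 its change was -0.17 (limma, adjusted p = 0.388). The difference between the siRNAs, -0.97 (SE 0.14; limma, adjusted p = 0.0125), passed under all 11 alternatives run. H2bc8 had 5.78 and 6.32, against 5.69, 5.60 and 6.11, and its change of 0.52 with siTARBP2-2 did not pass (limma, adjusted p = 0.19).

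The 5 pairs of H2A and H2B genes that face each other differed in how close their values were. H2ac12 had -0.33 with siTARBP2-1, where its partner H2bc12 had -0.003, and H2ac15 had -0.39, where H2bc15 had -0.15. H2ac7 and H2bc7 were close, at -0.23 and -0.22. With siTARBP2-2 the 10 genes of these pairs were all positive, from 0.11 for H2bc15 to 0.52 for H2bc8.

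Core H3 genes, whose tails carry many regulatory modifications, had mostly positive changes with both siRNAs. With siTARBP2-1, 6 of 7 were positive (median log2 change 0.15, from -0.30 to 0.56) and 2 passed, beside 3.88% of all genes called higher. With siTARBP2-2, 7 of 7 were positive (median 0.10, from 0.06 to 0.19) and 0 passed, beside 4.27% of all genes. At an unadjusted p under 0.05 limma gave 0 with siTARBP2-2, beside 22.9% of all genes. H3c4 had 8.34 with siTARBP2-1 and 7.88 with siTARBP2-2, against 7.78, 7.78 and 7.90 on the controls. H3c6 had 8.60 and 8.14, against 7.96, 8.04 and 8.12. In both genes the siTARBP2-1 array was the highest by a margin and siTARBP2-2 was close to the top control. H3c4 rose to 144% of control with siTARBP2-1 (log2 change 0.53, SE 0.12; limma, adjusted p = 0.0432) and H3c6 to 147% (log2 change 0.56, SE 0.12; limma, adjusted p = 0.0387). With siTARBP2-2 their changes were 0.06 and 0.10 and did not pass (limma, adjusted p = 0.805 and 0.661). The H3c4 call ended with median scaling (adjusted p = 0.128), with no filter (0.0567) and without siControl-1 (0.0521), siControl-2 (0.138) or siControl-3 (0.0549). The H3c6 call ended with median scaling (adjusted p = 0.0974), with no filter (0.0567) and without siControl-2 (0.119).

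Probes of H3c14 disagreed, an observation made after its values were seen. The brighter probe, ILMN_3136540, had 11.24 and 11.16 on the knockdown arrays, against 11.02, 11.20 and 11.05, with changes of 0.15 and 0.07. The dimmer probe, ILMN_3040069, had 6.53 and 5.99, against 5.48, 5.40 and 5.47, and passed with siTARBP2-1 (log2 change 1.08; limma, adjusted p = 0.00371) and with siTARBP2-2 (0.54, adjusted p = 0.0483). The brighter probe overlapped the controls with siTARBP2-2, and the dimmer one did not with either siRNA.

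The 6 core H4 genes above background had medians of 0.11 with siTARBP2-1 and 0.13 with siTARBP2-2. With either siRNA 0 passed, beside 7.65% of all genes with siTARBP2-1 and 4.27% with siTARBP2-2. At an unadjusted p under 0.05 limma gave 1 with siTARBP2-1, beside 24.7% of all genes, and 0 with siTARBP2-2, beside 22.9%. H4c11 had the highest change with either siRNA, 0.36 and 0.27. H4c4 had a log2 signal of 5.02 with siTARBP2-1 and 4.82 with siTARBP2-2, against 4.89, 5.10 and 5.07 on the controls, and was not above background with siTARBP2-2, where its change of -0.20 did not pass (limma, adjusted p = 0.39). Between the siRNAs the medians were 0.09 for H3 and 0.04 for H4, against -0.56 for H2A and -0.37 for H2B; with median scaling the H3 and H4 medians were both -0.08. The difference between classes was not tested.

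**Figure D3:**
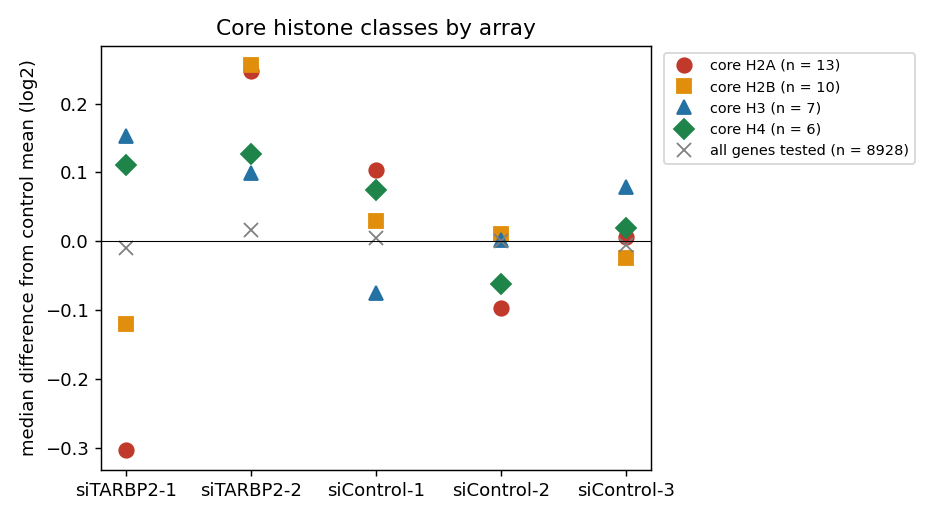
Median over the genes of each core histone class of the log2 difference from the control mean, for each of the 5 arrays. Core H2A lies at -0.30 with siTARBP2-1 and 0.25 with siTARBP2-2, against -0.10 to 0.10 on the control arrays, whereas core H3 lies at 0.15 and 0.10, against -0.07 to 0.08.

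**Figure D4:**
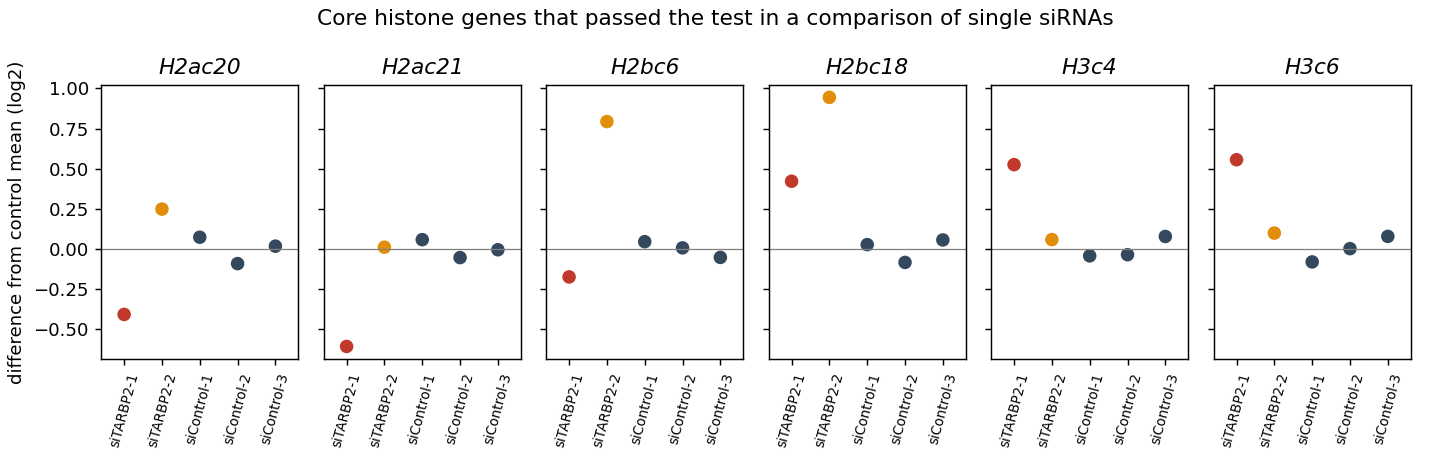
Log2 difference from the control mean on each array for the 6 core histone genes that passed limma in a comparison of single siRNAs. The siTARBP2-1 point is the lowest for H2ac20, H2ac21 and H2bc6 and the highest for H3c4 and H3c6, and the siTARBP2-2 point is the highest for H2ac20, H2bc6 and H2bc18.

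Variant histones, which are placed outside S phase as well, gave no call with either siRNA (limma, 0 of 4), beside 7.65% of all genes with siTARBP2-1 and 4.27% with siTARBP2-2. At an unadjusted p under 0.05 limma gave 1 with siTARBP2-1, beside 24.7% of all genes, and 0 with siTARBP2-2, beside 22.9%. Counts from 4 genes cannot be told apart from those shares. H2az1, which encodes the H2A.Z found at promoters, had a log2 signal of 11.80 with siTARBP2-1 and 12.30 with siTARBP2-2, against 12.37, 12.17 and 12.24 on the control arrays. Only the siTARBP2-1 array lay below the controls, at 72.7% of their mean (log2 change -0.46; limma, adjusted p = 0.0766). H2az1 passed as lower with siTARBP2-1 under median scaling (adjusted p = 0.0293) and with no background correction (adjusted p = 0.0127). H2ax, the histone phosphorylated at DNA breaks, had 9.70 and 9.65, against 9.88, 9.90 and 9.84, so both knockdown arrays were below the controls. Its changes of -0.17 and -0.22 did not pass (limma, adjusted p = 0.373 and 0.293). The H3.3 genes H3f3a and H3f3b had -0.25 and 0.01 with siTARBP2-1 and 0.06 and 0.19 with siTARBP2-2. A dimmer H3f3a probe, ILMN_3066986, was close to background. It lay above all 3 controls on both knockdown arrays, with changes of 0.16 and 0.22. H2aj was not above background.

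Germ cell histones were mostly not detected. Of 10 such genes 8 were not above background, among them the testis and oocyte linker histones H1f6, H1f7 and H1f8. H2ac1 lay close to background at 4.91 with siTARBP2-1, where it was not above it, and 4.95 with siTARBP2-2, against 5.17, 5.12 and 5.25 on the controls. Both knockdown arrays were below the controls, and the changes of H2ac1, -0.28 and -0.23, did not pass. H2al2a was above background as well, with changes of 0.23 and 0.09 that did not pass. The other 15 genes not above background were H2bc3, H3c3, H3c10, H4c2, H4c3, H4c8, H4c14, H1f1, H1f3, H1f4, H2aj, H2aw, H2bu1-ps, H2bu2 and H4f16.

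Genes that make, process and deliver histones were read beside the members. Of 15 histone chaperones above background, 1 rose and 2 fell with siTARBP2-1, beside 3.88% and 3.77% of all genes, and limma called 0 of 15 with siTARBP2-2, beside 4.27% (1 had an unadjusted p under 0.05, beside 22.9% of all genes). The H3.3 chaperone Daxx rose by 0.96 on the log2 scale with siTARBP2-1 (limma, adjusted p = 0.00548), where the H3.3 chaperone Hira fell by 0.63 on the log2 scale and Chaf1b, a subunit of the replication-coupled chaperone CAF-1, by 0.54. Of 9 genes of histone mRNA processing and decay, 1 fell with siTARBP2-1, beside 3.77% of all genes: the 3′ exonuclease Eri1, which trims histone mRNA ends (-0.54). Of 23 S phase genes, 2 fell with siTARBP2-1, Tk1 (-0.74) and Ccne1 (-0.64), and 1 with siTARBP2-2, Rrm2 (-0.67), a subunit of ribonucleotide reductase. All genes were called lower at 3.77% with siTARBP2-1 and 2.52% with siTARBP2-2. The S phase list had a median of -0.24 with siTARBP2-1, with 22 of 23 negative, and of 0.01 with siTARBP2-2, beside -0.01 and 0.02 for all genes. The other 21 S phase genes did not pass with siTARBP2-1, and the part of the list in the histone values was not tested. The centromeric H3 variant Cenpa, outside the symbol pattern, fell by 0.83 on the log2 scale with siTARBP2-1 (limma, adjusted p = 0.0122) and had 0.34 with siTARBP2-2 (adjusted p = 0.166). Without siControl-2 the siTARBP2-1 calls of Hira (adjusted p = 0.0921), Chaf1b (0.108), Eri1 (0.122), Ccne1 (0.0811) and Tk1 (0.0558) and the siTARBP2-2 call of Rrm2 (0.13) ended, and those of Chaf1b, Eri1 and Rrm2 ended without siControl-3 as well. The Eri1 call also ended with no background correction (adjusted p = 0.0539) and the Rrm2 call with no filter on dim probes (adjusted p = 0.078). Between the siRNAs, siTARBP2-1 minus siTARBP2-2, Cenpa (-1.17), Chaf1b (-0.75) and Cdt1 (-0.66), a factor that loads the replicative helicase, passed as lower and Daxx (0.80) as higher. Without siControl-2 these calls ended for Chaf1b (adjusted p = 0.0697), Cdt1 (0.0869) and Daxx (0.0576), and for Cdt1 also without siControl-3.

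The authors' deposited table, which compares both siRNAs with control on a scale that gives Tarbp2 -1.19, marked 8 of the 45 histone genes as higher (17.8%), beside 8.67% of its 18744 accessions. These shares are of unlike sets. The 45 genes are those above background, whereas the accessions include genes not above it, so the shares do not show an excess of histone genes. In the authors' deposited table H1f2 had the highest log2 value of these genes, 0.33, followed by H3c14 (0.24), H3c6 (0.23), H3c4 (0.19) and H4c11 (0.18). H2bc6, H2ac18 and H3c1 were marked as well. The authors' deposited table gave H2ac21 -0.24, H2az1 -0.21, H1f10 -0.16 and H2bc18 -0.02. H1f10, H2bc18 and H3c14 each have 2 probes for 1 accession, and which probe the authors' value refers to is not known.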

How the data were processed

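Biotin-labelled RNA of 2 knockdown and 3 control samples was measured on 1-colour Illumina BeadChips, per the labels. The deposited non-normalized table gives a linear intensity and a detection p-value per probe and array. Per the submitters' processing notes lumi was used, with no version. No genome build is named there. For siTARBP2-2 the deposited p-value did not follow the signal (Spearman correlation 0.000598, beside -0.961 to -0.967 elsewhere), so each probe took the p-value averaged at its signal rank over the remaining arrays. The deposited series matrix holds intensities that share their sorted values, so they were quantile normalized by the authors. The authors' deposited table gives a log2 fold change per accession, whose base was taken from its slope of 0.939 on the log2 ratio of bright probes (log2 intensity over 12), and a score of 1 for accessions marked as higher.

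Background correction and normalization used neqc (normexp, offset 16, quantile, log2) from limma 3.58.1, run in R 4.3.3. The fit held 13124 probes with a detection p-value under 0.05 on at least 2 arrays. Where a gene had several such probes the brightest stood for it. Genes were named from the platform annotation, and 0 of 76 histone symbols differed from RefSeq names. Knockdown was compared with control by limma (lmFit, eBayes, two-sided tests, Benjamini-Hochberg over all fitted probes, threshold 0.05), pooled and with a coefficient for each siRNA; the script was tested on simulated data. The number of arrays limits the precision. Genes named in full were the linker histones above background, members that passed, and the 3 largest rises and falls per siRNA. The members and lists were chosen with earlier results of these data known. Classes of histone genes were assigned by symbol, and promoters came from RefSeq (GRCm38.p6).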

Additional observations from a re-analysis of the deposited data

Results flagged for a closer look

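The arrays of the TARBP2 siRNAs differed in 3 histone genes by limma's test of the difference (siTARBP2-1 minus siTARBP2-2, log2). This passed for H2bc6 (-0.97; adjusted p = 0.0125), with -0.17 and 0.79 against control, for H2ac20 (-0.66; adjusted p = 0.0464), with -0.41 and 0.25, and for H2ac21 (-0.62; adjusted p = 0.0469), with -0.61 and 0.01. The calls of H2ac20 and H2ac21 ended under 3 of 11 alternatives each, that of H2bc6 under 0. H1f10 differed by -2.19, with -1.81 for siTARBP2-1 and 0.38 for siTARBP2-2 against control, and is given with no test because its difference led to the choice of the family. The changes share the control arrays, and each siRNA has 1 array, so a difference between siRNAs and one between 2 arrays cannot be told apart.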

How the results depend on the processing

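Counts of histone genes called, of 44 in most settings, moved with the processing, as did the share of all genes called. With no filter on dim probes 68 histone genes were measured, and for probes detected on all 5 arrays 39, H1f10 included. With siTARBP2-1 against control the count of 3 became 8 with no background correction, 7 with normexp and an offset of 50, 8 with the series matrix values and 1 with no filter on dim probes, and it ran from 0 to 2 when a control array was left out. With siTARBP2-2 the count of 2 stood beside 4.27% of all genes. It ran from 0 to 2 when a control was left out, beside 0.638% to 5.61%. Between the siRNAs the count of 3 stood beside 7.06% of all genes. The count became 15 with no background correction (14.1% of all genes), 14 with an offset of 50 (13.7%) and 12 with median scaling (10%). It was 15 with the series matrix values (14%), 1 with no filter (2.3%) and 5 for probes detected on all 5 arrays (10.7%). When a control was left out it ran from 1 to 7, beside 2.97% to 10.4% of all genes. The cause was not tested. Over both siRNAs the count stayed 0 when a control array was left out, beside 0% of all genes. Leaving out a knockdown array gives the fits of single siRNAs above. The change of H1f10, -0.72, reversed to 0.38 without siTARBP2-1 and was -1.81 without siTARBP2-2. The replicate block, with the replicate number as a term, also called 0 and could not be fitted for single siRNAs. Knockdown and control arrays of the same number had correlations of their deviations of -0.0485 for number 1 and -0.0266 for number 2. The deviations of the knockdown arrays mirror each other and hold the difference between the siRNAs, so these correlations cannot tell whether arrays were paired. With median scaling siTARBP2-1 calls were 0 higher and 2 lower, in place of 2 and 1, beside 9.17% of all genes called. Between the siRNAs the median of all genes then moved by -0.15. Of 20 calls of named genes with single siRNAs, 16 were lost when siControl-2 was left out, 5 when dim probes were kept and 2 under median scaling. With no background correction H1f10 differed by -1.56 between the siRNAs. Signals near background and 1 array per siRNA limit what can be shown.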
